A study of Mus musculus with 11 samples.

Results

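The choroid plexus is a sheet of secretory epithelium in the brain ventricles that makes cerebrospinal fluid. Its epithelial cells move ions and water from the blood side to the ventricle, secrete carrier proteins such as transthyretin, and are closed to each other by tight junctions, so that they form the barrier between blood and cerebrospinal fluid. Their neighbours along the ventricle wall, the ependymal cells, carry tufts of motile cilia that move this fluid. The capillaries of the choroid plexus are leaky, unlike those of the brain parenchyma, so molecules in the blood can reach the base of the epithelium without crossing the blood-brain barrier.

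Nuclei of this epithelium were sought in a single-nucleus RNA sequencing study of mouse brain. The authors had named 1525 of 110304 nuclei as class Glia, and these held both epithelia of the ventricle. A nucleus of that class was taken as choroid plexus epithelium where the unique molecular identifiers (UMIs, counted RNA molecules) of Htr2c, Otx2, Kl, Slc4a5, Enpp2 and Folr1 together outnumbered those of the cilia genes Dnah12, Dnah6, Dnah11, Spag17, Cfap54 and Tmem212. The members were thus chosen by these measured counts. The rule gave 861 nuclei, 56.5% of the class and 0.781% of all nuclei. Of the remainder of the class, 661 had the larger cilia sum and are called ependymal here, and 3 had equal sums. Levels of the 12 genes are therefore descriptions without a test.

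The labels name a knock-in of the human transferrin receptor (TfR), homozygous in every mouse. All mice received 4 weekly intravenous doses, with tissue taken 72 h after the last. The control, ATV:BACE1 at 57 mg/kg (n = 3), binds the TfR and carries no oligonucleotide. Its dose is the one in the sample labels, whereas the wording of the series' design leaves 60 mg/kg possible. OTV:Malat1 at 60 mg/kg (n = 3) puts an antisense oligonucleotide (ASO) on a TfR-binding molecule, and its target is Malat1, a long non-coding RNA of the nucleus. In nonTV:Malat1 at 60 mg/kg (n = 3) the carrier does not bind the TfR, and Malat1 ASO at 2.5 mg/kg (n = 2) is the free oligonucleotide. There was no group without an injected molecule. Each group had a replicate 1, a female of 2.33 months, and a replicate 5, a male of 2.33 months, and the first 3 groups also had a replicate 4, a male of 2.57 months. The deposited batch numbers 1, 3 and 4 follow the replicate numbers, so batch and replicate number cannot be told apart, and replicate 1 holds all the females. Labels give the region as posterior brain and the deposited metadata give cortex. The metadata name the strain C57BL/6J and no knock-in.

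The libraries held 48 to 117 choroid plexus nuclei each, with a median of 2713 UMIs per nucleus over all 861. Their summed UMIs ranged from 141700 to 429000 per library. None of these barcodes occurred in more than 1 library, although 1.37% of barcodes over all nuclei did. The authors' clustering put 851 of the 861 nuclei in its cluster 8. The authors' doublet call marked 172 of them, from 4.00% of a library to 38.5% in ATV:BACE1 replicate 1, and these were kept in the main counts.

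The label was checked against Ttr, the only marker of the 5 fixed for this cell type that lies outside the rule. Ttr, which encodes the thyroid hormone carrier transthyretin, had at least 1 UMI in 858 of the 861 nuclei, but also in 81.2% of ependymal nuclei and in 77.6% of the shallower vascular endothelial nuclei, so its detection alone separates little. Its level was 6249 counts per 1000000 UMIs (CPM) in these nuclei, 588 CPM in ependymal nuclei and 456 CPM in all other nuclei of the series. That last pool includes neurons at 355 CPM, and several other classes stood higher. Vascular smooth muscle had 1762 CPM, perivascular macrophages 1731, microglia 1542, oligodendrocytes 1449 and vascular endothelium 1434 CPM. The next 4 genes are of the rule, so their high level was fixed by it. Htr2c, the serotonin 2C receptor, stood at 9699 CPM against 197 CPM elsewhere. Enpp2, the secreted enzyme autotaxin, stood at 5010 against 152 CPM, with 1228 CPM in oligodendrocytes. Kl, the anti-ageing membrane protein Klotho, stood at 405 against 2.78 CPM. The homeobox factor Otx2 reached 339 against 2.66 CPM. In the nuclei, the choroid plexus sum had a median of 47 UMIs and the cilia sum a median of 2. Few nuclei lay near the boundary: 2 nuclei had a lead of 1 UMI and 1 had a lead of 2, while on the other side 1 nucleus trailed by 1 UMI and 3 trailed by 2.

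**Figure D1:**
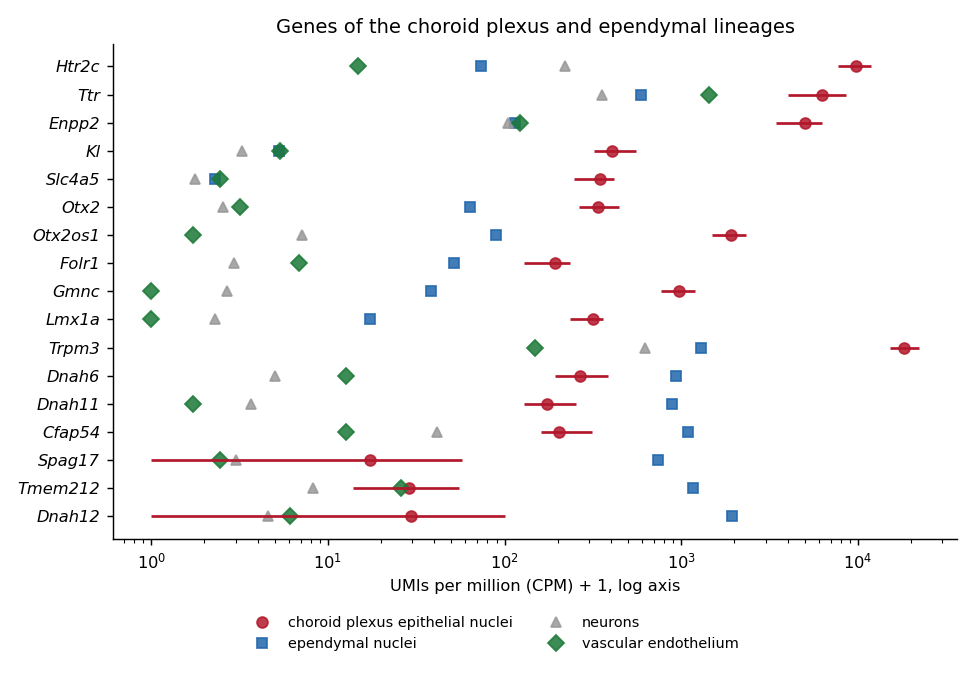
Level of 17 genes in CPM plus 1 on a log axis, in choroid plexus epithelial nuclei (circles, with a line from the lowest to the highest of 11 libraries), ependymal nuclei (squares), neurons (triangles) and vascular endothelium (diamonds). Htr2c stood at 9699 CPM in choroid plexus nuclei and Dnah12 at 28.4, against 72.8 and 1947 CPM in ependymal nuclei.

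After Malat1, the most abundant transcript was Trpm3, a cation channel gene, at 18333 CPM (15095 to 22190 over the 11 libraries). The next highest class for Trpm3 was the leptomeningeal cells at 13340 CPM, and neurons had 619 CPM. Trpm3 lies on chromosome 19 (GRCm38, 22139046 to 22995410, plus strand), and the gene of microRNA miR-204 lies within it at 22750605 to 22750672. The mature microRNA was not measured by this assay. It is shown because its host was the most abundant protein-coding transcript of these nuclei, with the seed (bases 2 to 8) in capitals, from RefSeq (GRCm38.p6).
mmu-miR-204-5p: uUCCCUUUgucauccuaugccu

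Among genes of at least 100 CPM, the 20 with the highest ratio of choroid plexus nuclei to all other nuclei were mostly protein-coding genes of varied kinds. Several were non-coding transcripts. Tmem72 had 641 CPM against 1.09 CPM elsewhere, and the sodium bicarbonate cotransporter Slc4a5 had 344 against 0.86. Rbm47, an RNA-binding protein, had 1105 CPM, but also 541 CPM in perivascular macrophages and 303 CPM in microglia. The homeobox factor Lmx1a, which is required for the roof plate from which this epithelium derives, had 317 CPM. Gmnc, a regulator that starts the multiciliated cell programme, had 972 CPM against 37.1 in ependymal nuclei. These genes were chosen for this ratio, so it is a description.

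Otx2 is a gene of the rule, so high levels beside it are a description and lend no separate support to the label. Position itself was not used in the choice by ratio, and 4 of the 20 genes lay together beside Otx2 on chromosome 14. They were Otx2os1 (1921 CPM), Gm49156 (124 CPM), Gm534 (224 CPM) and 4933429O19Rik (125 CPM), all between bases 48668708 and 48887112 of GRCm38, next to Otx2 itself at 48657677 to 48673819. In ependymal nuclei Otx2os1 had 87.9 CPM and the other 3 had 0.431 to 7.76 CPM. Transcripts of this stretch overlap on both strands, and whether strand was used in counting is not given in the sources used here, so their reads cannot be fully told apart.

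The core letters that OTX2 binds, TAATCC or GGATTA on the other strand, were searched in the 250 bases before each RefSeq start (GRCm38.p6). Of the 20 genes, 13 had an entry, with 17 starts, and 1 start held the motif, that of Rbm47. Of all 32851 starts, 6.25% held it, and 1 of 4 starts of Otx2 did. The 2 matching stretches are shown, because they are the ones among these genes that hold these letters, with the motif in capitals. The first is chr5:66151955-66152204 and the second chr14:48665110-48665359, both on the minus strand. A match is a description of letters and not a site of binding.
Rbm47: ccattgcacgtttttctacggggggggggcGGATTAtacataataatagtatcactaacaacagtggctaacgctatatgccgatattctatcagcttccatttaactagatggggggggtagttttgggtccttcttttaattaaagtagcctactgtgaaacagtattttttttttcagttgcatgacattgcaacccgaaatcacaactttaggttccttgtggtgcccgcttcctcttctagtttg
Otx2: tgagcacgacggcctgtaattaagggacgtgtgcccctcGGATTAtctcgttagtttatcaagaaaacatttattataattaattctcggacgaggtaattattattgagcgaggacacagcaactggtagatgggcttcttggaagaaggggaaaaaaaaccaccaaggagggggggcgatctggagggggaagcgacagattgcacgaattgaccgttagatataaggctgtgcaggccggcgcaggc

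The cilia genes of the rule were not equally low in these nuclei. Dnah6 (52.6% of choroid plexus nuclei with a UMI), Cfap54 (43.7%) and Dnah11 (39.1%), parts of the motile axoneme, were each found in many choroid plexus nuclei, against 83.5 to 89.0% of ependymal nuclei. Dnah12 (4.18%), Tmem212 (5.57%) and Spag17 (3.14%) were found in few, although 628 of 661 ependymal nuclei held a Dnah12 UMI. In CPM, Dnah6 stood at 268 in choroid plexus and 938 in ependymal nuclei, whereas Dnah12 stood at 28.4 and 1947. Median depth was similar, at 2713 UMIs in choroid plexus and 2565 in ependymal nuclei. In vascular endothelium, which should lack these genes but was shallower at a median of 960.5 UMIs, 1.45% of nuclei held a Dnah6 UMI and 0.542% a Dnah12 UMI. The rule used these 6 genes and favoured nuclei in which they were low, so this too is a description.

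Genes of fluid secretion were present at high levels. Slc4a10, a sodium-driven bicarbonate transporter, stood at 1677 CPM, the chloride channel gene Clic6 at 470 CPM, the sodium pump subunit Atp1b1 at 413 CPM and the cotransporter Slc12a2 at 384 CPM. The water channel Aqp1, which is abundant as protein at the apical membrane of this epithelium, had 16.6 CPM of nuclear RNA. Of carriers, the vitamin C transporter Slc23a2 had 677 CPM. The epithelial claudin gene Cldn2, typical of leaky epithelia, had 65.1 CPM against 0.29 CPM in all other nuclei and 2.59 CPM in ependymal nuclei.

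The receptor that ATV:BACE1 and OTV:Malat1 bind was low in these nuclei. Mouse Tfrc stood at 15.6 CPM, against 15.9 in ependymal nuclei, 34.5 in neurons and 272 in vascular endothelium. Over libraries it ranged from 6.26 to 35.3 CPM, and it did not pass the filter on low counts. Counts were made against a mouse genome, so the reads of the human sequence in the knock-in allele need not all be in this value. The transferrin gene Trf had 144 CPM, the ferritin chain Fth1 965 CPM and the metal reductase Steap2 215 CPM. Of endocytic genes, Dab2, an adaptor for lipoprotein receptors, had 216 CPM, the sorting receptor Sort1 165 CPM and the lipoprotein receptor Lrp1 123 CPM. They were the most abundant of a list of 14 uptake genes, of which 5 passed the filter. On that list Msr1 and Asgr1 had 0 CPM in each library. Stab1, Stab2, Lrp2 and Ager had at most 7.07 CPM in any library. Nuclear RNA does not measure receptor protein at the cell surface.

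Markers of other cell types were also counted in these nuclei. None was called between groups in the main fit, but 0 of all 7012 genes were called there, so this does not show equal levels. The 10 neuron markers, all detected, summed to 5897 to 9841 CPM in ATV:BACE1 libraries, 4029 to 6910 in nonTV:Malat1, 4616 to 8040 in OTV:Malat1 and 5335 to 6287 in Malat1 ASO, against 33842 CPM in neurons. The ranges overlapped between groups, and the ATV:BACE1 libraries had the highest mean. The median log2 difference of these markers from control was -0.30 with OTV:Malat1, -0.59 with nonTV:Malat1 and -0.53 with Malat1 ASO. Medians over all genes were 0.00, 0.01 and -0.00. Astrocyte markers summed to 1236 to 2933 CPM over all libraries and to 15736 CPM in astrocytes. Ependymal markers summed to 900 to 1787 CPM, against 9771 CPM in ependymal nuclei. That list of 12 holds the 6 cilia genes of the rule, so the rule fixed part of this contrast.

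The dosing comparison asked how far each agent lowered its target in this epithelium. Malat1, on chromosome 19 (5795690 to 5802672, minus strand), took 6.68%, 6.82% and 8.41% of choroid plexus UMIs in ATV:BACE1 replicates 1, 4 and 5. With OTV:Malat1 it took 5.06%, 4.52% and 5.31% in the same order, so all 3 libraries lay below all 3 controls. With nonTV:Malat1 it took 6.04%, 6.20% and 7.70%, which overlapped the controls. With Malat1 ASO it took 5.05% in replicate 1 and 6.48% in replicate 5, both below the lowest control.

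Group means were 7.30% ± 0.959 (SD, n = 3) for ATV:BACE1, 6.65% ± 0.916 (SD, n = 3) for nonTV:Malat1, 4.96% ± 0.400 (SD, n = 3) for OTV:Malat1 and 5.77% ± 1.01 (SD, n = 2) for Malat1 ASO. Within each batch the share with OTV:Malat1 was 75.7%, 66.3% and 63.1% of the control share in replicates 1, 4 and 5. With nonTV:Malat1 it was 90.5%, 90.8% and 91.6%, and with Malat1 ASO 75.7% in replicate 1 and 77.1% in replicate 5. Each of the 8 treated libraries was thus below the control of its own batch. Lower RNA per cell of this kind and a change in which nuclei were captured cannot be told apart from these shares.

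In edgeR's quasi-likelihood test on summed counts, Malat1 differed by -0.60 on the log2 scale with OTV:Malat1 (SE 0.18, 95% interval -0.98 to -0.22). It ranked 12 of 7012 genes by p, and its adjusted p was 1.00 over all genes, so it was not called. With the replicate number as a block the difference was -0.59 with an adjusted p of 0.165. The exact two-sided permutation test over libraries gave p = 0.1, the smallest that 3 against 3 allow. For nonTV:Malat1 the difference was -0.15 (95% interval -0.52 to 0.23) and the exact permutation p was 0.5. For Malat1 ASO it was -0.40 (95% interval -0.82 to 0.03), and the exact permutation p was 0.2, which is as small as 3 against 2 can give. These intervals and permutation tests do not use the batches. With the replicate block in edgeR the difference was -0.15 (SE 0.14, adjusted p = 0.913) for nonTV:Malat1. For Malat1 ASO it was then -0.44 (SE 0.16, edgeR adjusted p = 0.367).

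Between the 2 conjugates at the same dose, Malat1 was lower by 0.45 on the log2 scale with OTV:Malat1 than with nonTV:Malat1 (95% interval -0.83 to -0.07). The libraries did not overlap, and the exact permutation p was 0.1. The edgeR adjusted p was 1.00. OTV:Malat1 and the free oligonucleotide, which were given at different doses of their own mass, had overlapping libraries, with a difference of -0.20 (95% interval -0.62 to 0.22). The neuron marker sums above had their highest mean in the control group. Pooled over all libraries, treated ones included, neurons had 68969 CPM of Malat1 against 61956 CPM in choroid plexus nuclei. In the ATV:BACE1 libraries alone, Malat1 took 7.30% of choroid plexus UMIs, and the level in their neurons was not compared. With only the 740 nuclei in which the neuron markers gave under 1% of UMIs, the log2 differences from control were -0.63, -0.22 and -0.44 for OTV:Malat1, nonTV:Malat1 and Malat1 ASO.

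**Figure D2:**
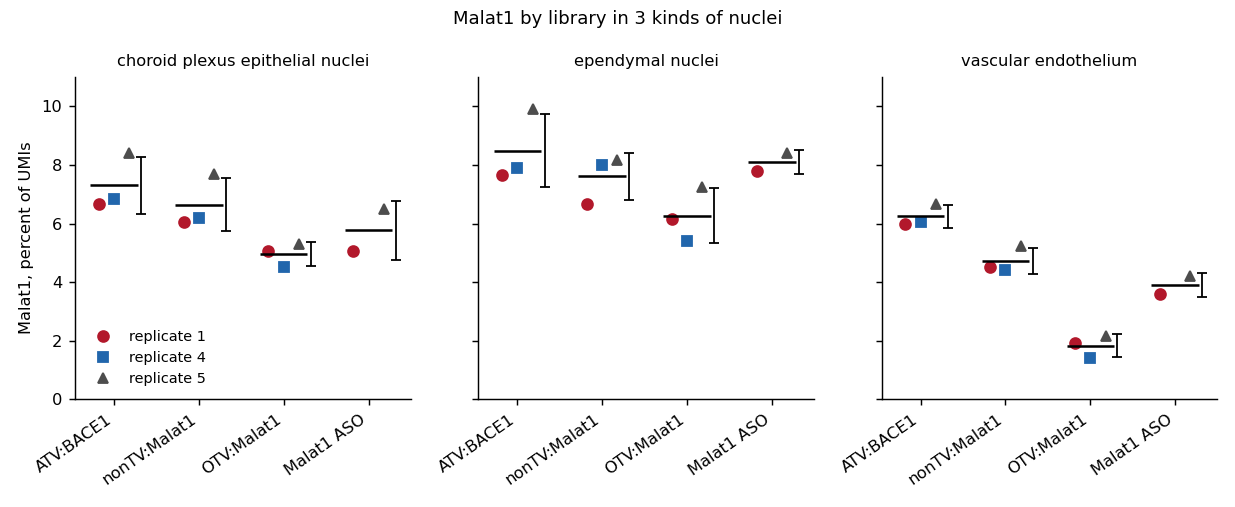
Malat1 as a percent of UMIs in each library for choroid plexus epithelial nuclei, ependymal nuclei and vascular endothelium, by dosing group. Symbols give the replicate number, lines the group mean and bars the SD; OTV:Malat1 libraries held 4.52 to 5.31% in choroid plexus nuclei and 1.41 to 2.16% in vascular endothelium.

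Vascular endothelium gave a larger drop within each batch, with all 3 agents. Malat1 with OTV:Malat1 was 32.3%, 23.2% and 32.3% of control within batches there, against 75.7%, 66.3% and 63.1% in choroid plexus nuclei. The difference between these changes was 1.25 on the log2 scale (SE 0.26, 95% interval 0.72 to 1.78) with an edgeR adjusted p of 0.0567, or 0.0756 with the replicate block. All 3 batches showed its direction. It missed the threshold of 0.05 in the main fit and passed it under 4 alternatives. Only 1 gene, Luzp2, passed the threshold for this difference, or 0.0149% of 6704 genes. Within batches, endothelial Malat1 with nonTV:Malat1 was 75.2%, 72.9% and 78.6% of control, against 90.5%, 90.8% and 91.6% in choroid plexus nuclei. With Malat1 ASO in replicates 1 and 5 it was 60.2% and 62.9%, against 75.7% and 77.1%. For nonTV:Malat1 the difference between the changes was 0.26 (95% interval -0.26 to 0.78) and for Malat1 ASO 0.25 (95% interval -0.34 to 0.83). What part the TfR has in these drops was not tested. Depth differed, with a median of 2713 UMIs in choroid plexus and 960.5 UMIs in endothelial nuclei.

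Against ependymal nuclei no difference in response was detected. Their Malat1 with OTV:Malat1 was 80.5%, 68.4% and 73.1% of control within batches. With Malat1 ASO it was 102% in replicate 1 and 84.7% in replicate 5, where choroid plexus nuclei had 75.7% and 77.1%. The difference between the 2 kinds of nuclei was -0.11 with OTV:Malat1 (95% interval -0.49 to 0.27), 0.05 with nonTV:Malat1 (95% interval -0.33 to 0.44) and -0.31 with Malat1 ASO (95% interval -0.74 to 0.12). The adjusted p in edgeR was 1.00 for each. The sign for nonTV:Malat1 turned under 7 alternatives. These intervals also allow differences of some size.

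Single nuclei were compared after thinning each to 1000 UMIs, which left out 0 to 13.6% of a library's nuclei. A nucleus was called low in Malat1 at or under 40.75 thinned UMIs, the mean of the control libraries' 5th percentiles. In ATV:BACE1 6.24% ± 2.20 of nuclei were low (SD, n = 3), with 22.2% ± 8.54 in nonTV:Malat1 (SD, n = 3), 32.6% ± 13.3 in OTV:Malat1 (SD, n = 3) and 37.4% ± 0.206 in Malat1 ASO (SD, n = 2). By library these were 8.77%, 4.76% and 5.19% in the controls, 21.7%, 31.0% and 13.9% with nonTV:Malat1, 29.5%, 47.2% and 21.1% with OTV:Malat1, and 37.2% and 37.5% with Malat1 ASO. Each treated library thus held more low nuclei than each control. The limit was set on the control libraries, which fixes their share near 5%, so these shares are a description with no test. The library medians of thinned Malat1, which use no limit, averaged 67.7 UMIs in ATV:BACE1, 55.7 in nonTV:Malat1, 47.8 in OTV:Malat1 and 46.8 in Malat1 ASO. No treated library's median reached the lowest control median of 61.0 UMIs, although that of nonTV:Malat1 replicate 5 was 60.5 UMIs. The thinning was a single random draw, so a gap that small may not hold in another draw. For these medians the exact two-sided permutation p was 0.1 for OTV:Malat1 and for nonTV:Malat1 and 0.2 for Malat1 ASO, the smallest these designs allow.

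The upper end of the distributions was then compared, with a measure chosen after they had been seen. The 95th percentile of thinned Malat1 in ATV:BACE1 replicates 1, 4 and 5 was 101, 96.7 and 128 UMIs. It was 73.3, 61.2 and 78.0 UMIs with OTV:Malat1. All 3 OTV:Malat1 libraries lay below all 3 controls, by 37.8 UMIs on average. It was 90.3, 111 and 119 UMIs with nonTV:Malat1 and 87.5 and 123 UMIs with Malat1 ASO. Both of these groups overlapped the control, and OTV:Malat1 lay below every library of both. These values are given as a description, with no test. Each rests on few nuclei of a single random draw. From 48 nuclei (Malat1 ASO replicate 5) to 114 (ATV:BACE1 replicate 1) were kept per library.

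At the lower end, which also rests on few nuclei per library, the 3 treated groups were alike in direction. The 5th percentile averaged 40.8 UMIs ± 1.92 (SD, n = 3) in ATV:BACE1, 28.4 ± 6.995 (SD, n = 3) in nonTV:Malat1, 27.1 ± 4.13 (SD, n = 3) in OTV:Malat1 and 22.8 ± 0.778 (SD, n = 2) in Malat1 ASO. The coefficient of variation between nuclei was 26.7 to 33.0% in ATV:BACE1 libraries and 28.2 to 29.8% in OTV:Malat1 libraries. It was 32.6 to 49.8% with nonTV:Malat1, and 40.3% and 53.7% with Malat1 ASO. OTV:Malat1 libraries lay below every nonTV:Malat1 library and both Malat1 ASO libraries. The 95th percentile and the coefficient of variation were chosen after the distributions had been seen. Without called doublets the 95th percentile with OTV:Malat1 was still lower than in ATV:BACE1 on average, but OTV:Malat1 libraries no longer lay below every library of the other treated groups.

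**Figure D3:**
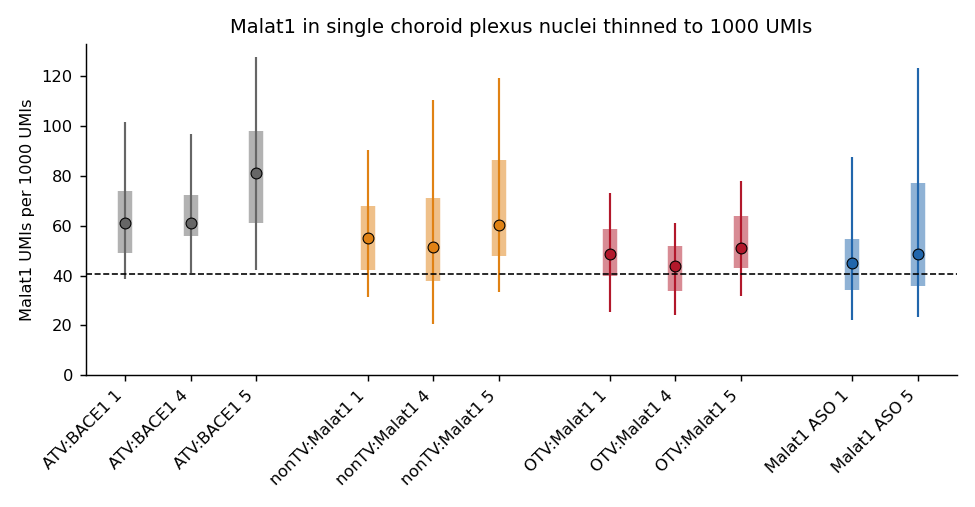
Malat1 UMIs per 1000 UMIs in single choroid plexus nuclei of each library, with the median as a circle, the 25th to 75th percentile as a thick bar and the 5th to 95th percentile as a thin line; the dashed line marks 40.75 UMIs. OTV:Malat1 libraries had 95th percentiles of 61.2 to 78.0 UMIs and ATV:BACE1 libraries 96.7 to 128 UMIs.

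No gene passed the threshold of 0.05 in edgeR in any of the 6 pairwise comparisons of groups, nor in DESeq2. Called genes were 0% of 7012 in each edgeR comparison. Genes with an unadjusted p below 0.05 numbered 199 (2.84%) when OTV:Malat1 was set against ATV:BACE1, 316 (4.51%) for nonTV:Malat1 and 344 (4.91%) for Malat1 ASO. They numbered 215 (3.07%) between OTV:Malat1 and nonTV:Malat1, 239 (3.41%) between OTV:Malat1 and Malat1 ASO, and 236 (3.37%) between nonTV:Malat1 and Malat1 ASO. Without the filter on low counts, 0, 1 (0.00484%), 3 (0.0145%), 0, 2 (0.00968%) and 4 (0.0194%) of 20667 genes were called in that order. With the replicate block the counts were 0, 2, 9, 0, 0 and 3 in the same order, which is 0.0285% of genes for nonTV:Malat1 against control, 0.128% for Malat1 ASO against control and 0.0428% for nonTV:Malat1 against Malat1 ASO.

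Genes among those with the smallest p, none of them called, were as follows. Against ATV:BACE1 they were Kpna1 (-1.16) and Gm47283 (1.57) with OTV:Malat1, Usp29 (-1.17), Clstn2 (-1.45) and Zfp804b (-1.66) with nonTV:Malat1, and Gm47283 (2.35), Rasgef1b (-1.59) and Cacna1e (-1.46) with Malat1 ASO, all log2 differences. Between treated groups they were Tenm1 (1.49) and Slc6a15 (1.77) for OTV:Malat1 minus nonTV:Malat1, Col25a1 (-1.79), Ano3 (1.64) and Tnr (1.60) for OTV:Malat1 minus Malat1 ASO, and Gm47283 (-2.08), Col25a1 (-1.79) and Sparcl1 (1.43) for nonTV:Malat1 minus Malat1 ASO. With the block, the last 3 were called, at -1.96, -1.80 and 1.29. Sparcl1 is also expressed by astrocytes, and astrocyte markers in choroid plexus nuclei summed to 1969 to 2933 CPM with nonTV:Malat1 and 1236 to 1849 CPM with Malat1 ASO. Their part in this call was not tested. Except for Kpna1, Gm47283 and Sparcl1, the genes named here stood higher in neurons than in choroid plexus nuclei. Clstn2 had 464 against 79.0 CPM and Col25a1 193 against 75.9 CPM. The part of neuronal RNA in these differences was not tested.

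The genes called lower with the block were few. Nrg3, a neuronal growth factor gene, and Cntn5, a neuronal adhesion gene, were lower with nonTV:Malat1 by edgeR, with differences of -0.96 (adjusted p = 0.0270) and -1.08 (adjusted p = 0.0319). With Malat1 ASO Nxph1, Cacna1e, Gria3, Rasgef1b, Galntl6, Meg3 and Tnr were lower, with differences from -2.11 for Nxph1 to -0.90 for Meg3. Gria3 encodes a glutamate receptor subunit, Cacna1e a neuronal calcium channel and Meg3 a long non-coding RNA abundant in neurons. The neuron marker sums given above had lower means in these groups than in ATV:BACE1, and their part in these calls was not tested. Nrg3 and Meg3 are themselves members of that marker list, so the sums hold part of the calls. None of these genes was called without the block, where adjusted p-values in edgeR were 0.431 to 0.778.

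Gm47283 was higher with Malat1 ASO. It is a predicted coding gene annotated on chromosome Y (90784738 to 90816464), and it was counted in female libraries too, so reads of another copy may be in its counts. Its level was 311 CPM in replicate 1 and 117 CPM in replicate 5 with Malat1 ASO, and 43.6, 5.11 and 80.1 CPM in ATV:BACE1 replicates 1, 4 and 5, all scaled by TMM. The value of ATV:BACE1 replicate 4 is 1 UMI. The 2 libraries of the free oligonucleotide lay above the 3 controls. The difference was 2.35 on the log2 scale (SE 0.43), with an edgeR adjusted p of 0.0535, or 0.000739 with the replicate block. OTV:Malat1 libraries had 181, 109 and 99.0 CPM, with a difference of 1.57 and an adjusted p of 1.00 in edgeR. Piezo1, a mechanically gated channel, was called with the block for Malat1 ASO at 1.38 (edgeR adjusted p = 0.0441), but without Malat1 ASO replicate 1 the difference was -0.79.

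The lists of secretion genes hold some genes of the rule, so they lend no support to the label. Of the 15 tested genes of ion and water transport, 0 were called against control in any group, and their median difference was 0.13 with OTV:Malat1, 0.28 with nonTV:Malat1 and 0.28 with Malat1 ASO, beside medians over all genes of 0.00, 0.01 and 0.00. Clic6 differed by 0.45, 0.40 and 0.47 in the same order and Slc12a2 by 0.21, 0.30 and 0.55. For Ttr the CPM were 8093, 4966 and 4915 in ATV:BACE1 replicates 1, 4 and 5, and 4726, 5930 and 4023 with OTV:Malat1, which overlapped. Its difference was -0.32 with OTV:Malat1 (SE 0.23, edgeR adjusted p = 1.00). For the 14 tested carrier genes medians were 0.12, 0.30 and 0.17, and for the 12 secreted factors -0.00, 0.27 and 0.10, with 0 called in each.

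Genes of junctions and polarity (10 tested) had medians of 0.05, 0.18 and 0.25 for OTV:Malat1, nonTV:Malat1 and Malat1 ASO, and the 8 transcription factors 0.25, 0.14 and -0.01. Of 10 tested RNase H and ASO-binding proteins, 0 were called. Iron handling (6 tested) and endocytic genes (5 tested) had 0 called. No gene of the interferon and nucleic acid sensing list (17 of 20 in the files) or of the immediate-early list passed the filter on low counts. Those genes were therefore not tested in the main fit. Of 16 inflammation genes 2 were tested and of 12 p53 and stress genes 2 were tested, with 0 called.

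Neat1, the paraspeckle RNA whose gene lies beside Malat1, was compared as a neighbour. It had 401, 371 and 433 CPM in ATV:BACE1 replicates 1, 4 and 5, and 855 and 685 CPM in Malat1 ASO replicates 1 and 5. The 2 free oligonucleotide libraries lay above all others, with a difference of 0.90 (SE 0.23) and an edgeR adjusted p of 0.722. With OTV:Malat1 it had 464, 313 and 450 CPM, a difference of -0.01. With nonTV:Malat1 it had 525, 503 and 440 CPM, a difference of 0.28.

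The share of choroid plexus nuclei in a library varied within and between groups. It was 0.834% ± 0.178 (SD, n = 3) in ATV:BACE1, 0.964% ± 0.169 (SD, n = 3) in nonTV:Malat1, 0.639% ± 0.142 (SD, n = 3) in OTV:Malat1 and 0.706% ± 0.342 (SD, n = 2) in Malat1 ASO. Exact two-sided permutation p-values against control were 0.5, 0.3 and 0.6. The smallest these designs allow are 0.1 for 3 against 3 and 0.2 for 3 against 2, so no difference could have passed 0.05.

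Libraries were also compared by replicate number. With the dosing group in the fit, replicate 1 (4 female libraries of batch 1) was set against replicates 4 and 5 (7 male libraries of batches 3 and 4), a comparison added after the values had been seen. In edgeR 201 of 6389 genes passed an adjusted p of 0.05, or 3.15%, of which 64 were higher and 137 lower in replicate 1. The rule genes Dnah12 and Dnah6 are among the 137, and for them this is a description and not a test. Replicate 4 against replicate 5, both male, gave 0 called genes in edgeR, 0.0% of 6389. Of these genes 656 had an unadjusted p under 0.05 in edgeR, so the 0 does not show that both replicates were alike. This comparison gave 16 called genes without called doublets and up to 28 with 1 library left out. It gave 2 (0.0331%) in ependymal nuclei and 4 (0.102%) in vascular endothelium. Called doublets were 17.2 to 38.5% of choroid plexus nuclei in replicate 1 libraries and 4.00 to 22.7% in the others, with 265100 to 429000 and 141700 to 272600 summed UMIs. Without called doublets 585 genes were called, and the part of depth was not tested. Of the 201 genes, 12 lie on chromosome X and 4 on chromosome Y, and 183 lie on other chromosomes, 57 of them higher and 126 lower in replicate 1. How the 6389 tested genes divide over the chromosomes was not counted, so these numbers show no excess on any chromosome. Sex, batch and replicate cannot be told apart.

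Of the 333 tested genes with over 5 times the level of all other nuclei and more than ependymal nuclei, 30 were called (9.01%, beside 3.15% of all genes), 17 higher and 13 lower in replicate 1. Prlr, the prolactin receptor, had 641, 1088, 1433 and 1383 CPM in replicate 1 of ATV:BACE1, nonTV:Malat1, OTV:Malat1 and Malat1 ASO. It had 435 to 673 CPM in the 7 other libraries, which overlap only the ATV:BACE1 value. The genes named here were picked after their values were seen. The difference was 0.95 on the log2 scale (SE 0.16, edgeR adjusted p = 8.85e-05). Kcnj13, an inwardly rectifying potassium channel, had 320 to 513 CPM in replicate 1 and 124 to 296 CPM in the others, a difference of 1.11 (edgeR adjusted p = 1.32e-05).

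Socs2, a feedback inhibitor of cytokine and prolactin receptor signalling, had 42.0, 51.8, 67.9 and 86.4 CPM in replicate 1 in the same group order and 0 to 18.3 CPM in the others. Its difference was 2.69 (SE 0.45, edgeR adjusted p = 0.000138). It was called in the 14 of 18 settings in which it was tested. A2m, a protease inhibitor, had 128 to 218 CPM against 0 to 77.6 CPM, a difference of 2.37. Piezo1 had 106 to 339 CPM against 36.7 to 62.4 CPM, a difference of 1.45, and Tc2n, Wdr86, Slc6a20a (a proline transporter) and L3mbtl3 were also called higher. Prlr, Kcnj13, A2m, Tc2n and Wdr86 did not pass the filter on low counts in ependymal nuclei or vascular endothelium. In those, 62 of 6037 genes (1.03%) and 44 of 3920 genes (1.12%) were called in the same comparison.

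**Figure D4:**
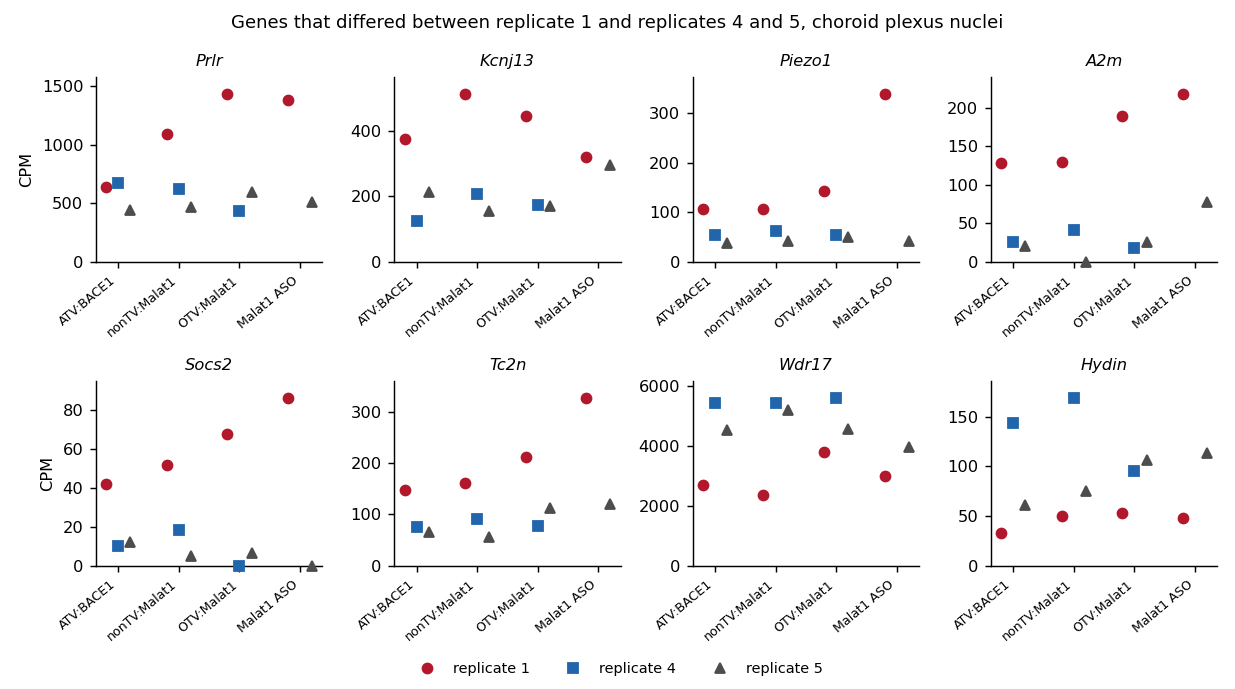
CPM of 8 genes in choroid plexus nuclei of each library, by dosing group, with circles for replicate 1, squares for replicate 4 and triangles for replicate 5. Prlr in replicate 1 ranged from 641 to 1433 CPM and in the other replicates from 435 to 673 CPM.

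Among the genes lower in replicate 1, Wdr17 had 2351 to 3787 CPM against 3973 to 5599 CPM, a difference of -0.80, and was also called in ependymal nuclei at -0.73 (edgeR adjusted p = 0.00664). C330002G04Rik had 330 to 490 CPM against 557 to 837 CPM, a difference of -0.88, and Gm49156, of the stretch beside Otx2, differed by -0.92. The cilia gene Hydin had 32.6 to 52.8 against 61.2 to 169 CPM, and its difference in ependymal nuclei was -0.07. The ependymal marker sum in choroid plexus nuclei was 900 to 1092 CPM in replicate 1 and 1037 to 1787 CPM in the others, and its part in these differences was not tested. That sum holds Hydin itself and the cilia genes of the rule, so it is not a separate measure. Astrocyte genes Slc1a2, Gpc5 and Aqp4 were lower too, Aqp4 in only 9 of 18 settings. Astrocyte markers summed to 1236 to 1969 CPM in replicate 1 and 1849 to 2933 CPM in the others. Slc1a2, Gpc5 and Aqp4 are themselves in that marker list, so the sums hold part of the calls. AY036118 and Gm42418, transcripts of a ribosomal RNA region, differed by -1.48 and -1.07, and also in ependymal nuclei by -1.40 and -1.16. Over the 18 settings run, 39 genes were called in each, 32 of them outside chromosomes X and Y, 9 higher and 23 lower. Leaving out nonTV:Malat1 replicate 1 left 58 called genes, and leaving out called doublets gave 585.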

How the data were processed

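Each of 11 libraries has its own sex and age label. No label says that each is a separate animal, so p-values measure the spread between these libraries. Per the submitters' processing notes the authors used Cell Ranger 5.0.0, Seurat 4 and mm10. The deposited matrix holds raw UMI counts for 25938 gene symbols. The deposited metadata hold the authors' class names, clusters, doublet calls and batch numbers, a mitochondrial percent and a prediction score as a fraction. Any filter on nuclei by the authors is not given in the sources used here. Both members and gene lists were chosen with earlier results of these data known.

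Counts were summed per library and tested in 1 fit of the 4 groups with edgeR 4.0.16 in R 4.3.3 (TMM, filterByExpr, glmQLFTest), with Benjamini-Hochberg adjustment over 7012 genes at 0.05. The script was tested on simulated data. CPM are summed UMIs per 1000000. Differences between kinds of nuclei were interaction terms with library terms. Single values had exact permutation tests. Sequences and positions came from RefSeq and GENCODE M21 (GRCm38).

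Named genes were Malat1, markers, rule genes, the 20 highest ratios, the 10 most abundant, the 3 smallest p-values of a comparison, called genes, and the most abundant list members; a few that this rule names are not reported here. Same-numbered libraries share a deposited batch. Their log2 CPM, centred within groups, had r from 0.079 to 0.328 over 15 pairs, and others from -0.214 to 0.065 over 30 pairs. Alternatives were DESeq2 1.42.0, library totals in place of TMM, library size with Malat1 excluded, no low-count filter, the replicate block, no doublets, at least 1000 UMIs, a stricter rule for the nuclei, under 1% neuron UMIs (added later) and each library left out. Python 3.11.15 with pandas 2.3.3 and scipy 1.17.1 was used elsewhere.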

Additional observations from a re-analysis of the deposited data

Results flagged for a closer look

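Luzp2, a leucine zipper gene on chromosome 7 (54835498 to 55268885), differed between choroid plexus nuclei and vascular endothelium in its change with OTV:Malat1. The difference of the changes was 2.50 on the log2 scale (SE 0.49, edgeR adjusted p = 0.0351), and 1 of 6704 genes was called, or 0.0149%. In choroid plexus nuclei it had 249, 252 and 363 CPM in ATV:BACE1 replicates 1, 4 and 5, and 343, 680 and 263 CPM with OTV:Malat1, which overlap. In vascular endothelium it had 250, 117 and 131 CPM in the controls and 32.6, 65.7 and 42.1 CPM with OTV:Malat1, from 4 to 7 UMIs a library. The adjusted p was 1.00 without called doublets and without ATV:BACE1 replicate 1. It was 0.480 without OTV:Malat1 replicate 1, 0.469 without OTV:Malat1 replicate 4, 0.0756 with the replicate block and 0.0531 with the stricter rule.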

How the results depend on the processing

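Malat1 against ATV:BACE1 kept its direction with OTV:Malat1 and Malat1 ASO under each alternative run. The replicate block changed no Malat1 call. It moved counts of called genes to 2 for nonTV:Malat1, 9 for Malat1 ASO and 3 for nonTV:Malat1 against Malat1 ASO. Without the low-count filter these counts were 1, 3 and 4, with 2 for OTV:Malat1 against Malat1 ASO. For Malat1 ASO, total counts without TMM gave 1, the stricter rule 1 and nuclei under 1% neuron UMIs 1; the last gave 1 for OTV:Malat1 against Malat1 ASO. Leaving out each library gave 0 to 4 for Malat1 ASO, 0 to 1 for OTV:Malat1 against nonTV:Malat1 and 0 to 2 for nonTV:Malat1 against Malat1 ASO. Without either Malat1 ASO library its arm has 1 library, which is then assumed to vary like the other groups.

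The choroid plexus minus ependymal difference with nonTV:Malat1 turned to -0.026 with Malat1 left out of library size, -0.042 without the filter, -0.15 without doublets, -0.018 with the stricter rule and -0.084 under 1% neuron UMIs. Without nonTV:Malat1 replicate 5 it was -0.021 and without OTV:Malat1 replicate 1 -0.011, and leaving out each library gave -0.021 to 0.082. The choroid plexus minus endothelial difference with OTV:Malat1 passed the threshold at 1.2002 without the filter (adjusted p = 3.203e-05, edgeR), at 1.18 under 1% neuron UMIs (0.0299, edgeR), and without either Malat1 ASO library at 1.26 (0.00377, edgeR) or 1.25 (0.00695, edgeR). Leaving out each library gave 1.14 to 1.32. The cause was not tested.

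Low-Malat1 nuclei with Malat1 ASO exceeded control by 31.1 percentage points, or 28.4 thinned to 500 UMIs, 36.9 without thinning, 33.9 with a 10th percentile limit, 34.0 without doublets and 35.3 under 1% neuron UMIs. The share of nuclei with Malat1 ASO was 84.7% of control, and 55.7% or 114% without replicate 1 or 5. Genes called for replicate 1 against replicates 4 and 5 numbered 585 without doublets, 127 with the stricter rule and 58 to 199 without 1 library. Replicate 4 against replicate 5 gave 16 without doublets and 0 to 28 without 1 library. Piezo1 turned to -0.79 without Malat1 ASO replicate 1 and was 2.20 without replicate 5. With 48 to 117 nuclei a library, groups of 2 or 3 and 7012 testable genes, small changes could not be detected.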
